A study of Mus musculus with 2 samples.

Results

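The genes described here are 9 of the PDGF (platelet-derived growth factor) axis and of mural cells, the contractile cells that sheathe vessels: the ligands Pdgfa and Pdgfb, the receptors Pdgfra and Pdgfrb, the adhesion molecule Mcam, the signalling regulator Rgs5 and the contractile genes Acta2, Tagln and Myl9. They were chosen by name, and all 9 were among the 9127 gene symbols that the count tables of both libraries listed. Single cells of tumours grown in C57BL/6 mice were profiled by 3' RNA sequencing, in 1 WT library and 1 library of the genotype Cdh5-cre Myct1 fl/fl (the sample label writes Cdh-cre), called the Myct1 knockout here. Each library pooled the tumours of 4 mice. In the knockout mice, Cre recombinase is driven by the promoter of Cdh5, the endothelial cadherin gene, so mural cells, fibroblasts and tumour cells are not the cells in which Cre is meant to act. The sources used here do not give the tumour model or the ages of the mice, and of the controls they say only WT.

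PDGF ligands are secreted dimers that bind receptor tyrosine kinases on neighbouring cells. PDGF-B made by sprouting endothelium binds PDGFRB on pericytes, the mural cells of small vessels, and recruits them to the new vessel. PDGF-A acts mainly through PDGFRA on fibroblasts. Smooth muscle actin (Acta2), transgelin (Tagln) and a myosin regulatory light chain (Myl9) build the contractile apparatus of smooth muscle cells and of activated fibroblasts.

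The genes' raw UMI counts (unique molecular identifiers, 1 per captured RNA molecule) were summed per library over cells gated by marker genes, with none of the 9 genes in a gate. A level is given in CPM, the gene's count scaled by all counts summed over the class, which serves to compare a gene between cell classes and libraries but not 1 gene with another. WT and knockout held 533 and 297 endothelial cells (248 and 173 of them with tip markers), 87 and 20 mural cells, 1825 and 27 Pi16-type fibroblasts, 541 and 56 Postn-type fibroblasts, and 3681 and 6668 cells positive for the keratins Krt8 and Krt18, of 7895 and 8070 cells kept. The labels call the samples endothelium, but endothelial cells were 6.75% of WT cells and 3.68% of knockout cells. Defining genes of the gates were read as a check: Cdh5 stood at 1701 and 1042 CPM in endothelial cells and at 0 UMIs in mural cells of both libraries, and Notch3 at 1059 and 591 CPM in mural cells against 2.07 and 1.19 CPM in endothelial cells. The epithelial markers Epcam, Cdh1 and Cldn7 summed to 6.63 CPM in WT keratin positive cells, and those of them that the knockout table listed to 1.18 CPM, so these cells are called by their keratins alone. Myct1 was at 246 CPM in WT endothelial cells (951 UMIs) and at 0 UMIs in WT mural cells. The knockout table listed no row for it; each table lists the genes that reach at least 4 UMIs in some barcode, so no knockout level can be set beside the WT one.

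There was 1 library per genotype, so there is no replicate error, no test and no p-value. The log2 ratios compare the knockout with WT, with 95% intervals from the exact conditional binomial distribution that cover counting error only, and genotype cannot be told apart from library. A gene counted as different when it had at least 20 UMIs over both libraries, a ratio of at least 2-fold and an interval that excluded 0. The ratio of the median gene was below 0 on the log2 scale in every class, by as much as -0.34 in endothelial cells and -0.30 in mural cells and as little as -0.04 in Pi16-type fibroblasts. Ratios also fell with transcript length (Spearman's rho across genes -0.54 in endothelial and -0.42 in mural cells; genes are not independent replicates), so a ratio relative to genes of like length is given where it changes the picture.

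Pdgfb marked the endothelium, and within it the tip cells, in both libraries. In WT it stood at 422 CPM in tip cells (395 to 450, exact Poisson 95% interval) and at 183 CPM in other endothelial cells (163 to 205). In the knockout it stood at 248 CPM in tip cells (225 to 273) and at 116 CPM in the others (94.1 to 142). Tip cells were the higher of the 2 in each library, with intervals that did not overlap. The log2 ratio of tip over other cells was 1.20 in WT (1.01 to 1.39) and 1.10 in the knockout (0.77 to 1.43), so the tip preference differed by less than its counting error. With the tip gate first planned, 2 of 10 markers, which took in nearly all endothelial cells, the knockout ratio was 0.40. Tip cells were deeper than other endothelial cells, with medians of 7674 against 5327 UMIs in WT and 8569 against 5698 in the knockout. After thinning each cell to 3000 UMIs, 59.8% of WT tip cells and 39.8% of other WT endothelial cells held a Pdgfb UMI, against 43.5% and 23.8% in the knockout. In Pi16-type fibroblasts, which should lack the gene, 0.0567% of thinned WT cells did.

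Pdgfb was lower in the knockout endothelium, by about as much as many genes. Over all endothelial cells the level was 318 CPM in WT and 205 CPM in the knockout, a log2 ratio of -0.64 (-0.79 to -0.49). The knockout was lower in tip cells (-0.77, -0.93 to -0.60) and in other endothelial cells (-0.66, -1.01 to -0.32), although the first planned tip gate gave 0.37 in the few cells it left among the others. The ratio over all endothelial cells ranked at percentile 34.0 of the measured genes, was -0.29 relative to the median gene and -0.15 relative to genes of like length. It was below 0 under all 20 alternatives and reached 2-fold in none.

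**Figure D1:**
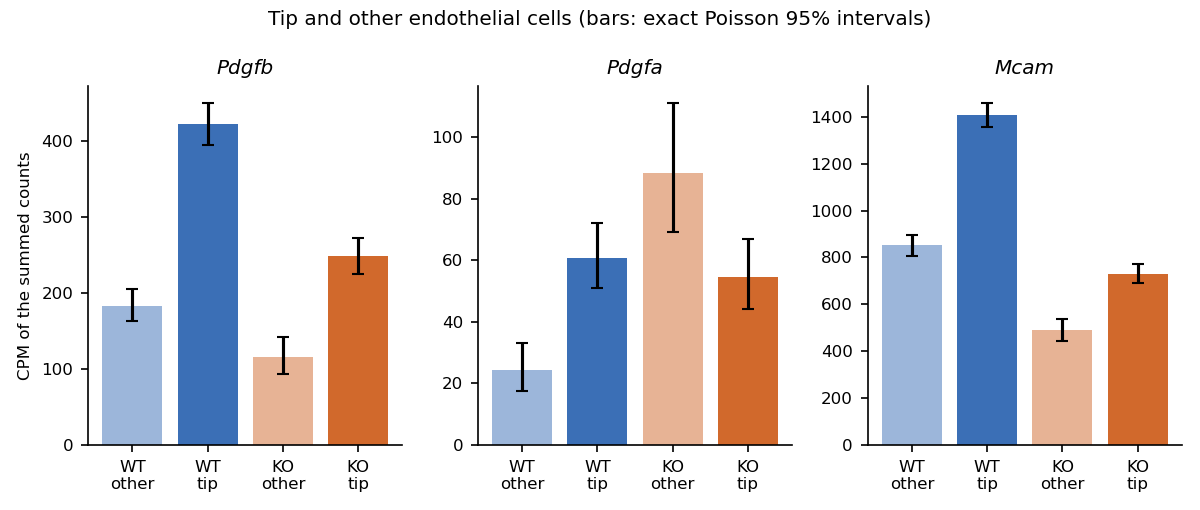
Levels of Pdgfb, Pdgfa and Mcam in CPM of the summed counts in tip and other endothelial cells of the WT and knockout (KO) libraries, with exact Poisson 95% intervals. Pdgfb and Mcam are higher in tip cells in both libraries, and the other endothelial cells of the knockout hold the highest Pdgfa level of the 4 sets.

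Outside the endothelium Pdgfb was low in every class. Mural cells held 4 WT and 2 knockout UMIs of it (6.75 CPM, 1.84 to 17.3, and 17.1 CPM, 2.08 to 61.9), and Postn-type fibroblasts held 4 and 0. Keratin positive cells stood at 10.8 CPM in WT and 11.2 CPM in the knockout, which is 3.38% and 5.46% of the endothelial level. The 16 endothelial gating markers in the same cells stood at 0.547% and 0.692% of their endothelial level. These cells were the most numerous, and they held 32.7% of all WT Pdgfb UMIs and 66.9% of the knockout's, while endothelial cells held 61.7% and 25.9%.

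**Figure D2:**
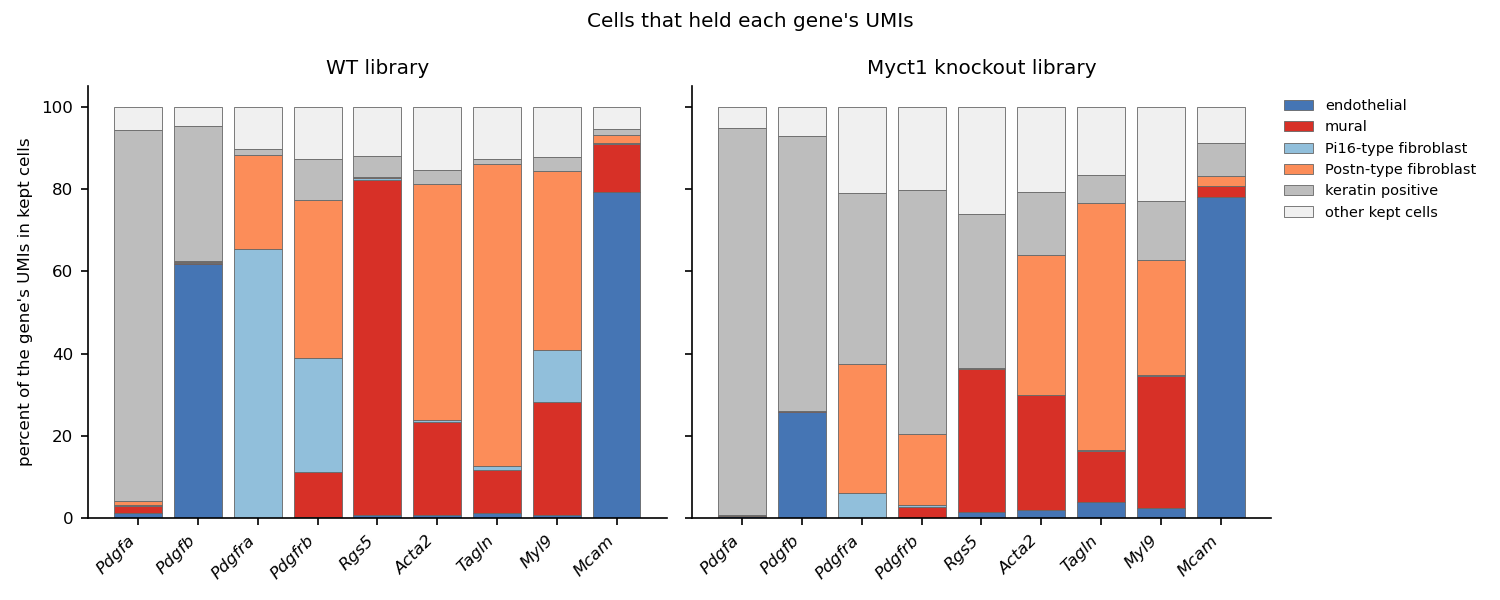
Share of each gene's UMIs in kept cells that each cell class held, in percent, for the WT and the knockout library. The endothelial share of Pdgfb is 61.7% in WT and 25.9% in the knockout, and the mural share of Rgs5 is 81.4% and 34.7%.

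Pdgfa followed another distribution. Its level was highest in mural cells, 317 CPM in WT (273 to 366) and 326 CPM in the knockout (231 to 447), and these did not differ beyond counting error (log2 ratio 0.04, -0.50 to 0.55). Keratin positive cells came next, at 185 CPM in WT (181 to 188) and 263 CPM in the knockout (260 to 266). In the knockout the intervals of these neighbours overlapped, and in WT they did not. Keratin positive cells held 11181 of the 12421 WT and 31570 of the 33517 knockout Pdgfa UMIs. Their log2 ratio was 0.51 (0.48 to 0.54), at percentile 92.5 of the measured genes, and 0.37 relative to genes of like length.

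In endothelial cells the order of tip and other cells by summed level was not the same in the 2 libraries. WT tip cells stood at 60.8 CPM of Pdgfa (50.9 to 72.0) and other WT endothelial cells at 24.5 CPM (17.6 to 33.2). Knockout tip cells stood at 54.6 CPM (44.0 to 66.8) and other knockout endothelial cells at 88.3 CPM (69.2 to 111). Tip cells were thus higher in WT (log2 1.31, 0.80 to 1.85) and lower in the knockout (-0.69, -1.15 to -0.23). However, the first planned tip gate gave 0.76 in the knockout, and tip cells gated after thinning gave 0.50 in WT. The other endothelial cells differed between libraries by 1.85 (1.28 to 2.44), at percentile 99.4 of the measured genes. They passed the 2-fold rule in each of the 18 alternatives that gave a value, the lowest being 1.05 with tip cells gated after thinning. Pdgfa was detected in 9.47% of these cells in WT (6.34 to 13.5%) and in 24.2% in the knockout (17.0 to 32.7%). The 5 lymphatic markers summed to 1106 CPM in WT and 1010 CPM in knockout other endothelial cells. Of these, 14 of 285 WT and 11 of 124 knockout cells held at least 2 of the markers other than Pdpn. Krt8 and Krt18, the markers of the cells that held most Pdgfa, summed to 13.1 CPM in these cells in WT and 24.2 CPM in the knockout. That is 0.924% and 1.44% of their level in keratin positive cells, while Pdgfa stood at 13.3% and 33.6% of its level there.

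Fibroblasts held little Pdgfa: 3.23 CPM in WT Pi16-type cells, 15.2 CPM in WT Postn-type cells (12.5 to 18.1) and 37.2 CPM in knockout Postn-type cells (25.5 to 52.6), with 2 UMIs in the 27 knockout Pi16-type cells. The Postn-type cells of the knockout were higher by 1.30 (0.69 to 1.87, 32 against 118 UMIs). Krt8 and Krt18 also stood higher in them, at 30.2 against 10.0 CPM; the part of this carry-over in the Pdgfa ratio was not tested.

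**Figure D3:**
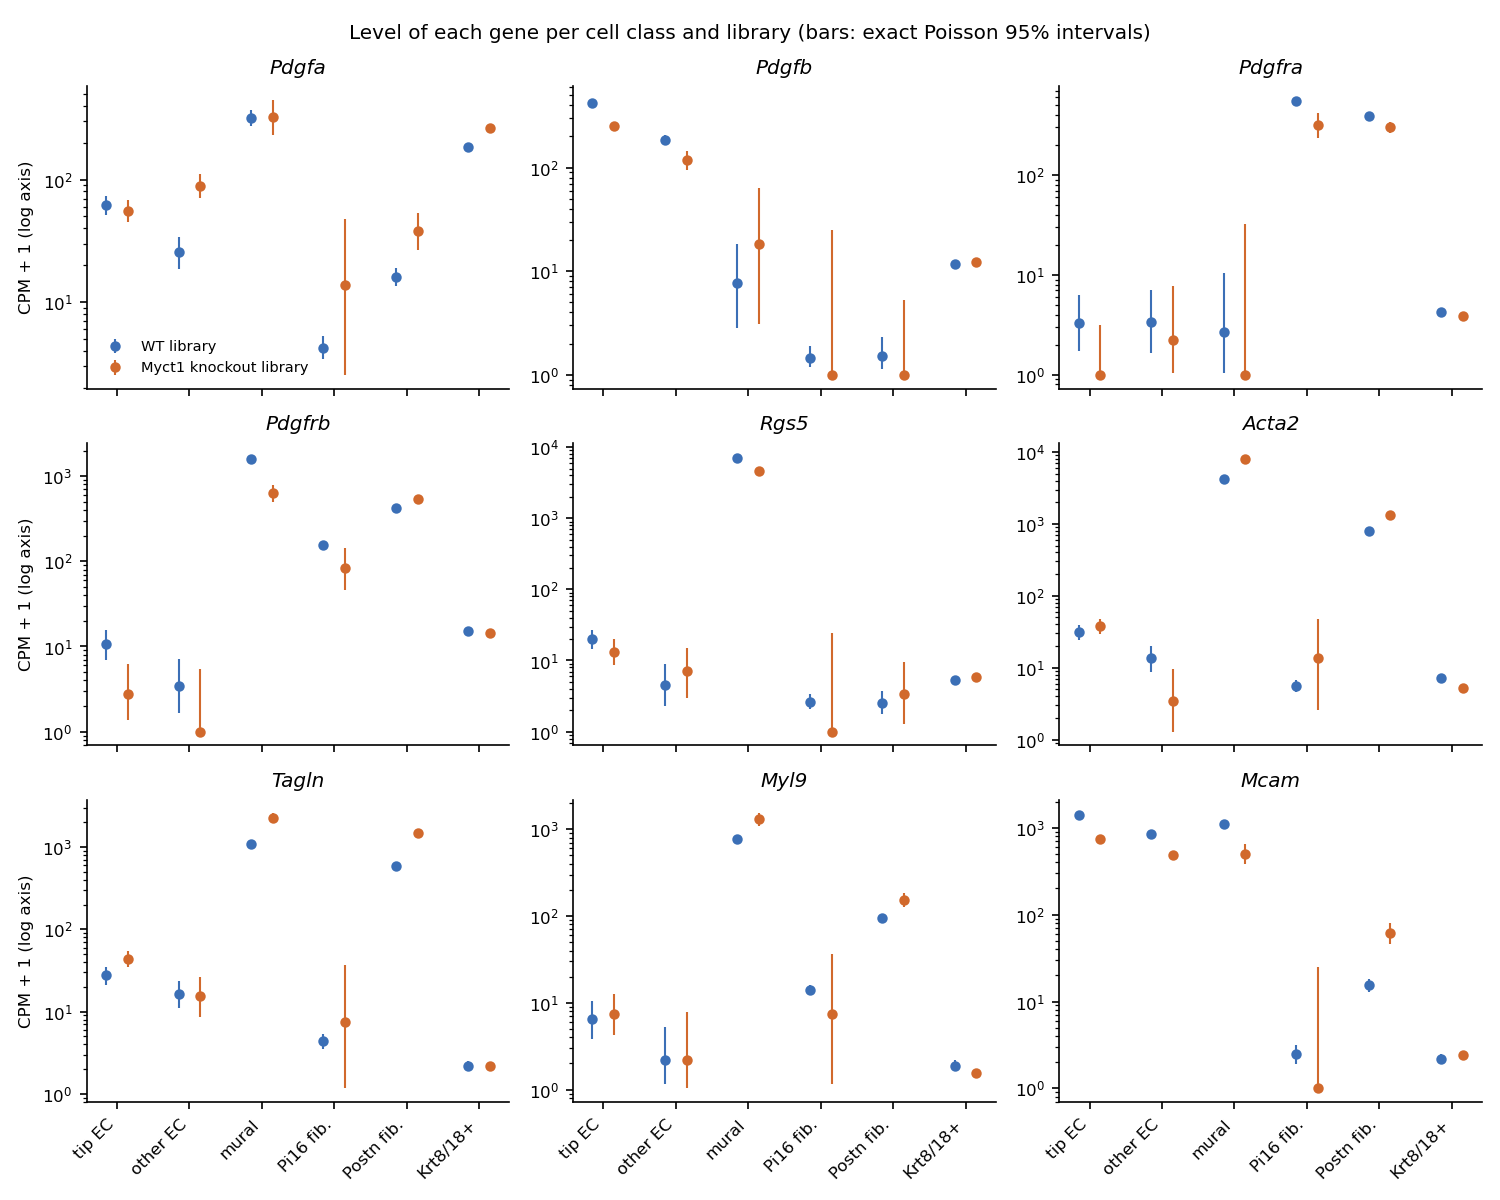
Level of each of the 9 genes in 6 cell classes (EC, endothelial cells; fib., fibroblasts) of the WT and knockout libraries, as CPM + 1 on a log axis, with exact Poisson 95% intervals. Rgs5 is high in mural cells alone, Pdgfrb, Acta2, Tagln and Myl9 in mural cells and Postn-type fibroblasts, Pdgfra in fibroblasts, and Mcam in endothelial and mural cells.

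Pdgfra was nearly absent from mural cells, while Pdgfrb was found in mural cells and in both types of fibroblast. Pdgfra, the receptor of fibroblasts, stood at 555 CPM in WT Pi16-type (544 to 567) and 391 CPM in WT Postn-type cells (377 to 405), and at 315 CPM (233 to 416) and 301 CPM (266 to 340) in the knockout. The 2 types differed beyond counting error in WT and not in the knockout. Knockout levels were the lower ones in both types, with log2 ratios of -0.82 (-1.26 to -0.42, 49 knockout UMIs in 27 cells) and -0.38 (-0.56 to -0.19). The second was -0.03 relative to genes of like length. Mural cells held 1 Pdgfra UMI in WT and 0 in the knockout. A count of 0 in the 20 knockout mural cells allows a level of up to 25.7 CPM (3 counts). Keratin positive cells stood at 3.22 and 2.85 CPM, which is 0.580% and 0.906% of the Pi16-type level, where the 10 fibroblast gating markers stood at 0.468% and 0.333% of theirs.

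Pdgfrb, the receptor of PDGF-B, was highest in mural cells and detected in all 87 WT and all 20 knockout cells. Mural cells stood at 1594 CPM in WT (1494 to 1699) and 634 CPM in the knockout (498 to 796). Postn-type fibroblasts stood at 428 CPM (413 to 442) and 543 CPM (495 to 595). Pi16-type fibroblasts stood at 153 CPM (147 to 159) and 83.5 CPM (44.5 to 143). The order of the 3 classes was the same in both libraries, but in the knockout the mural and Postn-type intervals overlapped. The mural log2 ratio was -1.33 (-1.69 to -0.99), at percentile 16.5 of the measured genes, and the Postn-type ratio was 0.35 (0.20 to 0.49). Relative to genes of like length the mural ratio was -0.75, which is under 2-fold; it passed the rule in the other 19 of 20 alternatives. In single mural cells Pdgfrb ran from 110 to 5431 CPM in WT, with a median of 1689, and from 262 to 1754 CPM in the knockout, with a median of 573. The WT and knockout cells overlapped over that range, and the highest knockout cell lay near the WT median.

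Endothelial cells held few Pdgfrb UMIs, 25 in WT and 3 in the knockout. The ratio of -2.45 (-4.82 to -0.74) passed the rule, but 44.0% of the WT UMIs came from 1 cell. With a mural gate lacking Myh11, Cnn1 and Des, which moves cells between classes, the ratio was -0.35, and relative to genes of like length its interval included 0. The 10 fibroblast gating markers summed to 262 CPM in WT and 72.3 CPM in knockout endothelial cells, and the mural ones to 166 and 128 CPM. The mural sum was uneven over its markers. Of 533 WT endothelial cells Abcc9 was at 0 in 318 and Kcnj8 in 453, but Notch3 in 528 and Higd1b and Des in 530. The part of these markers in the Pdgfrb ratio was not tested. Keratin positive cells stood at 14.1 and 13.4 CPM, which is 0.884% and 2.11% of the mural level, where the mural gating markers stood at 0.195% and 0.169% of theirs.

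Rgs5, a regulator of G protein signalling and a pericyte marker, was almost confined to mural cells among the classes gated. It stood at 7152 CPM in WT mural cells (6938 to 7370) and 4680 CPM in knockout mural cells (4296 to 5090), and at no more than 18.7 CPM in any other class of either library. The knockout was lower by a log2 ratio of -0.61 (-0.74 to -0.48), at percentile 38.0 of the measured genes and -0.29 relative to genes of like length. In single cells the WT values ran from 0 to 23626 CPM with a median of 8008, and the knockout values from 1048 to 13453 CPM with a median of 4159. Rgs5 exceeded 5000 CPM in 60 of 87 WT and 6 of 20 knockout mural cells. The WT and knockout cells overlapped over most of the range. Mural cells held 81.4% of all Rgs5 UMIs in WT and 34.7% in the knockout, where mural cells were 0.248% of cells against 1.10% in WT.

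Mcam, also known as CD146, an adhesion molecule of endothelium and pericytes and a co-receptor for PDGFRB, stood at like levels in both vascular classes of WT, 1167 CPM in endothelial cells (1133 to 1201) and 1100 CPM in mural cells (1017 to 1188). In the knockout it stood at 652 CPM (620 to 684) and 497 CPM (378 to 643). The 2 classes overlapped in their intervals within each library, and both knockout levels were the lower ones. The log2 ratio was -0.84 in endothelial cells (-0.92 to -0.76), at percentile 21.7 of the measured genes, and -1.15 in mural cells (-1.56 to -0.76), at percentile 20.8. Relative to genes of like length these were -0.36 and -0.61, both under 2-fold. The mural ratio passed the rule in 16 of 20 alternatives. Within the endothelium tip cells held more of it: 1408 against 852 CPM in WT (log2 0.73, 0.63 to 0.82) and 730 against 489 CPM in the knockout (0.58, 0.42 to 0.74). In Postn-type fibroblasts the direction was the other one, with 14.4 CPM in WT (11.8 to 17.3) and 60.5 CPM in the knockout (45.2 to 79.3), a log2 ratio of 2.07 (1.57 to 2.56). That level came from 9 of 56 knockout cells and 52 of 541 WT cells, and 26.9% of the knockout UMIs from 1 cell; without the top cell of each library the ratio was 1.91. The mural gating markers summed to 378 CPM in WT and 499 CPM in knockout Postn-type cells, and the endothelial ones to 214 and 252 CPM; their part in the ratio was not tested.

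**Figure D4:**
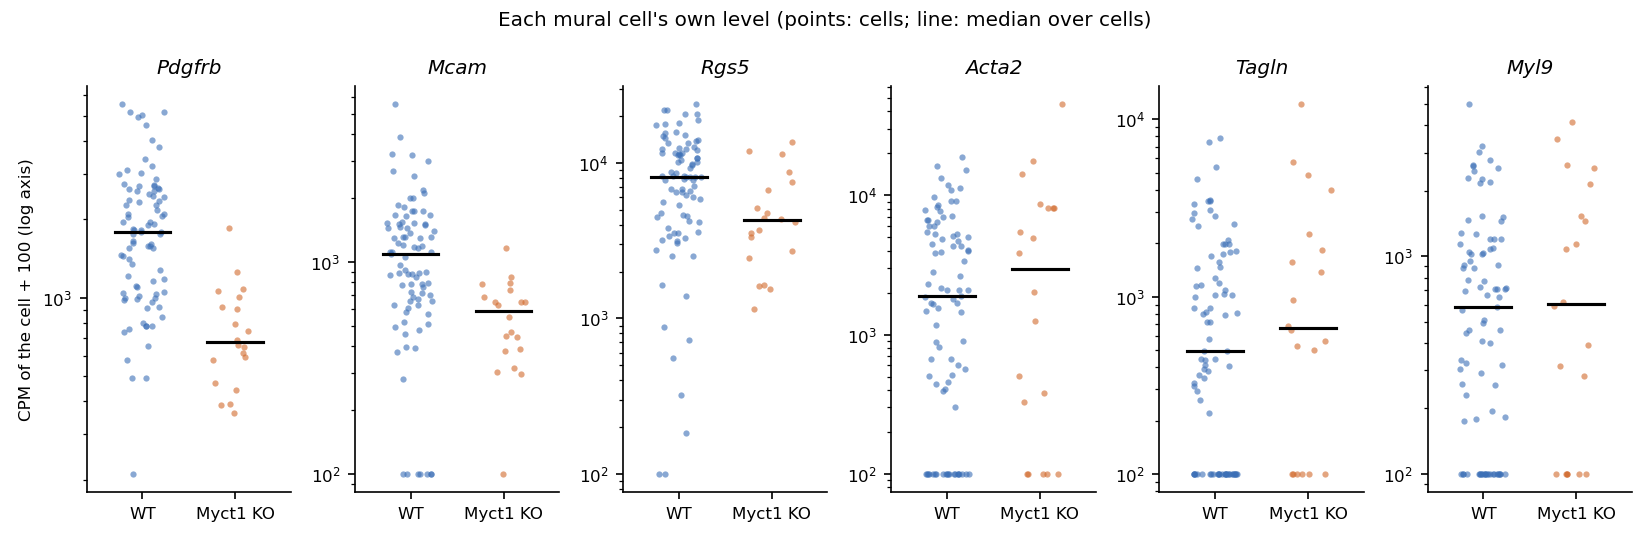
CPM + 100 on a log axis of 6 genes in each of 87 WT and 20 knockout (KO) mural cells; each point is a cell and the line is the median over cells. The medians of Pdgfrb, Mcam and Rgs5 are lower in the knockout, and 1 knockout cell stands far above the others in Acta2.

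The contractile genes Acta2, Tagln and Myl9 stood higher in the knockout by summed level, both in mural cells and in Postn-type fibroblasts. Acta2 stood at 4159 CPM in WT mural cells (3996 to 4326) and 8083 CPM in knockout mural cells (7575 to 8616), a log2 ratio of 0.96 (0.85 to 1.07). Tagln stood at 1092 CPM (1009 to 1179) and 2280 CPM (2014 to 2571), a ratio of 1.06 (0.85 to 1.27). Myl9 stood at 768 CPM (699 to 842) and 1294 CPM (1096 to 1518), a ratio of 0.75 (0.48 to 1.02). The libraries' intervals did not overlap for any of the 3, and their ratios ranked at percentiles 94.9, 96.1 and 90.1 of the measured genes, but only Tagln passed the 2-fold rule. Relative to genes of like length the ratios were 1.20 for Acta2, 0.95 for Tagln and 0.47 for Myl9.

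The knockout mural cell with the most UMIs of a gene held 25.7% of the Acta2, 24.4% of the Tagln and 27.2% of the Myl9 UMIs. Without the top cell of each library the ratios were 0.73, 0.84 and 0.55, so that Tagln no longer passed the rule. Tagln passed it in 14 of 20 alternatives, and all 3 stayed above 0 under each of 20 alternatives. Over single cells the difference was smaller than in the sums. The median of Acta2 was 1797 CPM in WT and 2845 CPM in the knockout, that of Tagln 392 and 564 CPM, and that of Myl9 483 and 502 CPM. Acta2 exceeded 5000 CPM in 24 of 87 WT cells (27.6%) and 8 of 20 knockout cells (40.0%), and was at 0 in 20 and 5 cells. The cells of the 2 libraries overlapped from 0 up to the highest WT cell of Acta2 (18762 CPM) and Tagln (7755 CPM), above which lay knockout cells of up to 44649 and 11993 CPM. Fibroblast gating markers summed to 6376 CPM in WT and 5057 CPM in knockout mural cells, and the Postn-type markers to 4041 and 2554 CPM.

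In Postn-type fibroblasts Acta2 stood at 804 CPM in WT (784 to 824) and 1336 CPM in the knockout (1259 to 1415), Tagln at 581 CPM (565 to 599) and 1495 CPM (1414 to 1579), and Myl9 at 92.7 CPM (86.1 to 99.7) and 152 CPM (127 to 181). The knockout was the higher library for each, without overlap of the intervals. The log2 ratios were 0.73 (0.64 to 0.82), 1.36 (1.27 to 1.45) and 0.72 (0.44 to 0.99). Tagln ranked at percentile 98.8 of the measured genes and passed the rule in all 20 alternatives. Its highest knockout cell reached 17667 CPM and held 17.0% of its UMIs. The top knockout cell of Acta2 held 13.7% and that of Myl9 17.6%. Over single cells the median of Acta2 was 162 CPM in WT and 206 CPM in the knockout. That of Tagln was 135 and 311 CPM, and that of Myl9 0 in both. An Acta2 UMI was found in 64.5% of WT and 58.9% of knockout cells. For Tagln these shares were 61.4% and 71.4%, and for Myl9 37.5% and 46.4%. Postn-type fibroblasts were the main source of Acta2 and Tagln in WT, with 57.2% and 73.4% of their UMIs, against 34.1% and 60.2% in the knockout. WT Pi16-type fibroblasts stood at 4.56 CPM of Acta2, 3.36 CPM of Tagln and 13.2 CPM of Myl9, and held 0.659%, 0.859% and 12.6% of their UMIs.

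The contractile genes varied together from cell to cell within a class. Across 74 WT mural cells thinned to 3000 UMIs, Spearman's rho was 0.76 between Acta2 and Tagln and 0.64 between Acta2 and Myl9, while it was -0.48 between Acta2 and Pdgfrb and -0.30 between Acta2 and Rgs5. Across 18 knockout mural cells the first pair gave 0.69 and the third -0.35, and Rgs5 gave 0.06 with Acta2. In 538 WT and 55 knockout Postn-type fibroblasts rho between Acta2 and Tagln was 0.62 and 0.77. The cells of a library share their preparation, and these values are descriptions.

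Contractile genes carry CArG boxes, the binding motif of serum response factor. The form searched for here was CC, 6 bases of A or T, then GG, a palindromic pattern that reads alike on both strands. RefSeq promoter windows of build GRCm38.p6, 300 bases each, were searched for it; 6 of the 9 genes have an entry there, and Pdgfb, Pdgfrb and Tagln do not. The box was found in the window of Myl9 and in none of those of Pdgfa, Pdgfra, Rgs5, Acta2 and Mcam. Of all 32851 windows, 1.63% held it. A match describes the letters of this window, and no match says only that this exact form is not in it. Boxes that depart from the form by a base were not searched for. The bases before the annotated start of Myl9 are shown with the box in capitals, at chr2:156775303-156775312, 117 bases before that start. Those of Rgs5, a mural gene whose window holds no box, are shown beside them. Whether the box bears on any ratio given here was not tested.
Myl9, chr2:156775214-156775419, plus strand: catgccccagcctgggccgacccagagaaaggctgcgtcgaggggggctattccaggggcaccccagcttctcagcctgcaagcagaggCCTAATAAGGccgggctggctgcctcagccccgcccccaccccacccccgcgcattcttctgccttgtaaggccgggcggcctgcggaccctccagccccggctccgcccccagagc
Rgs5, chr1:169655251-169655500, plus strand: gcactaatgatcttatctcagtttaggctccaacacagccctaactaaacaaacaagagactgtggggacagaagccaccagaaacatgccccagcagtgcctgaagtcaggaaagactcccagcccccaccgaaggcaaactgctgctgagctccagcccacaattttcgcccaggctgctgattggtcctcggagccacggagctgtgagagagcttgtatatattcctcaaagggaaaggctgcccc

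In GENCODE M21 on GRCm38, Myl9 (ENSMUSG00000067818.6) lies at chr2:156775420-156781658 and Rgs5 (ENSMUSG00000026678.10) at chr1:169655501-169695813, both on the plus strand. Acta2 (ENSMUSG00000035783.9) lies at chr19:34241090-34255590 and Tagln (ENSMUSG00000032085.5) at chr9:45929619-45936058, both on the minus strand, and Mcam (ENSMUSG00000032135.15) at chr9:44134469-44142727 on the plus strand. Pdgfa (ENSMUSG00000025856.15) lies at chr5:138976014-138997370 and Pdgfb (ENSMUSG00000000489.7) at chr15:79995874-80014977, both on the minus strand, and Pdgfra (ENSMUSG00000029231.15) at chr5:75152292-75198215 on the plus strand.

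The counts of the 9 genes past the 2-fold rule are set here beside the share of all measured genes past it. In mural cells, where 12.8% of all measured genes differed, 7 of the 9 had enough UMIs; 1 was higher (Tagln), against 3.06%, and 2 were lower (Pdgfrb and Mcam), against 9.77%. In Postn-type fibroblasts, where 8.18% differed, 7 had enough UMIs; 3 were higher (Pdgfa, Tagln and Mcam), against 2.29%, and 0 lower, against 5.88%. In endothelial cells, where 17.4% differed, 8 had enough; 1 was lower (Pdgfrb), against 14%, and 0 higher, against 3.41%, so their share was near the background.

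Among other endothelial cells, where 19.6% differed, 5 had enough. Pdgfa was higher, against 4.48%, and Acta2 lower, against 15.2%, on 21 WT and 2 knockout UMIs of which 1 WT cell held 76.2%. In tip cells, where 17% differed, Pdgfrb was the 1 lower of 8, against 13.8%, and 0 were higher, against 3.14%. In Pi16-type fibroblasts, with 27 knockout cells, 0 of 8 differed, against 3.99% of all measured genes (2.34% higher and 1.65% lower). In keratin positive cells 0 of 9 differed, against 4.53% (1% higher and 3.53% lower).

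Of 7 genes with enough UMIs in WT, 5 were higher in tip than in other endothelial cells (Pdgfa, Pdgfb, Pdgfrb, Rgs5 and Acta2), against 2.26% of all measured genes higher and 5.31% different. In the knockout Pdgfra, Pdgfrb and Myl9 had too few UMIs. Of the other genes 3 were higher in tip cells (Pdgfb, Acta2 and Tagln), against 2% higher and 5.07% different. The values of Pdgfrb, Rgs5, Acta2 and Tagln in endothelial cells rest on few cells. In WT tip cells 1 cell held 52.4% of the Pdgfrb, 43.9% of the Rgs5 and 93.9% of the Acta2 UMIs, and in knockout tip cells 84.1% of Acta2 and 45.2% of Tagln. With tip cells gated after thinning, the WT log2 ratios were -2.67 for Pdgfrb, -1.94 for Rgs5 and -3.78 for Acta2, past the rule in the other direction. The mural gating markers summed to 234 CPM in WT tip cells and 77.6 CPM in other WT endothelial cells, and to 158 and 65.3 CPM in the knockout. These sums are uneven over their markers, with Abcc9 at 0 in 318 and Notch3 in 528 of 533 WT endothelial cells. The part of the markers in these ratios was not tested.

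**Figure D5:**
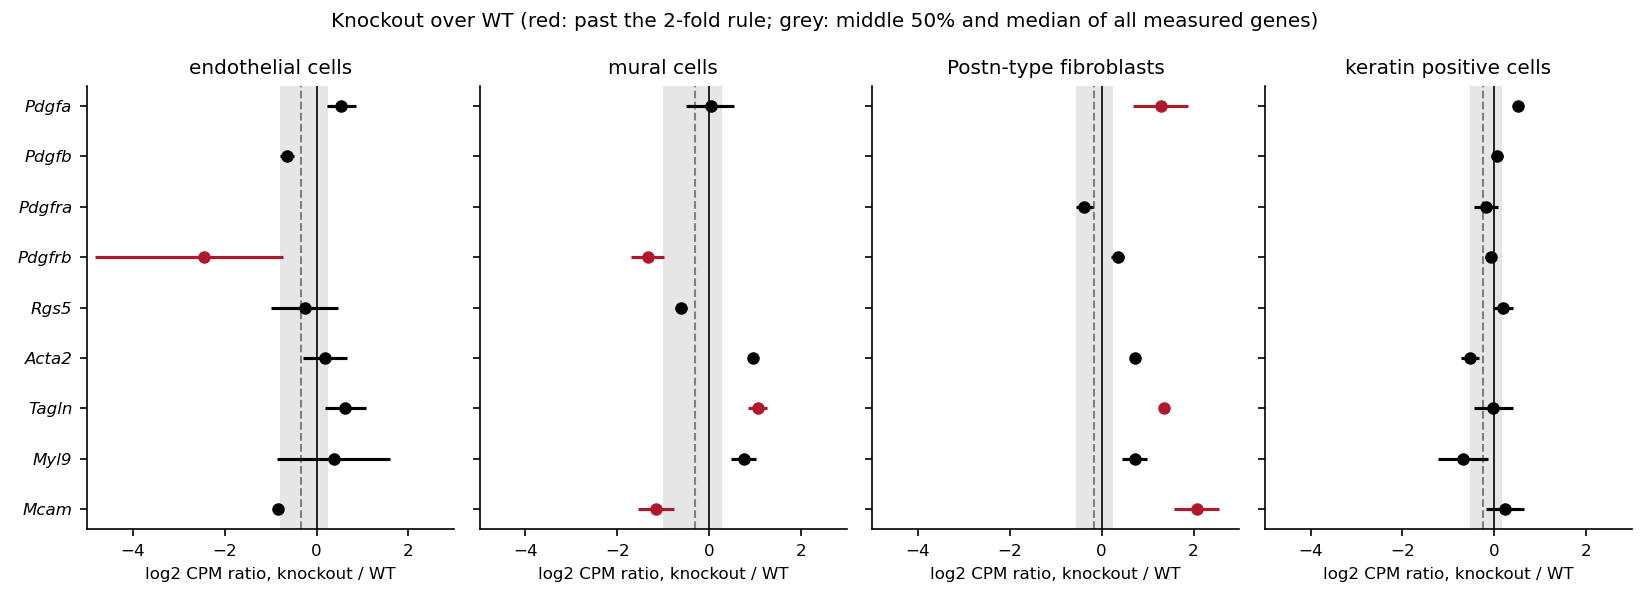
Log2 ratio of CPM, knockout over WT, of each gene with enough UMIs in 4 cell classes, with exact conditional binomial 95% intervals; red points pass the 2-fold rule, the grey band is the middle 50% of all measured genes and the dashed line their median. In mural cells Pdgfrb, Rgs5 and Mcam lie below 0 and Acta2, Tagln and Myl9 above it, and in Postn-type fibroblasts Pdgfa, Tagln and Mcam are past the rule.

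The share of higher and lower genes in this background depends on scaling. With counts scaled by their sum, 19.6% of the endothelial and 23.8% of the mural genes past the rule were higher in the knockout; relative to the median gene these shares were 66.0% and 64.4%, and in Postn-type fibroblasts they were 28.0% and 50.5% and in keratin positive cells 22.1% and 46.7%. The directions of Pdgfb and Mcam in endothelial cells, of Pdgfrb, Rgs5, Mcam, Acta2, Tagln and Myl9 in mural cells and of Acta2, Tagln, Myl9, Mcam, Pdgfa and Pdgfrb in Postn-type fibroblasts held under each scaling tried.

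Other genes of PDGF signalling were taken as a list of 26. In mural cells 5 of 16 with enough UMIs were lower in the knockout, against 9.77% of all measured genes, and 0 higher, against 3.06%, and the median log2 ratio was -0.77 against -0.30. Relative to genes of like length the median was -0.05 and 1 gene was lower; genes of at least 5000 bases had a median of -0.77 in this class. The lower ones were Nrp1, a co-receptor of several growth factors, at 376 CPM in WT and 103 CPM in the knockout (-1.87, -2.85 to -1.04), the adaptor Crk (-1.53), the endocytic receptor Lrp1, which associates with PDGFRB (-1.28), and tissue plasminogen activator, Plat (-1.11). The ubiquitin ligase Cbl, with 23 WT and 0 knockout UMIs, was the other; it has no fitted ratio and is named after its values were seen.

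In endothelial cells 4 of 18 genes of that list were lower, against 14% of all measured genes, and 0 higher, against 3.41%. They were S1pr3, a receptor of sphingosine-1-phosphate (-2.13, 3 knockout UMIs), Nrp1 (-1.10), the PI3-kinase subunit Pik3r1 (-1.05) and Rasa1 (-1.02). The median was -0.69 against -0.34; relative to genes of like length it was -0.02, and 0 genes passed the rule. In Postn-type fibroblasts 1 of 22 was higher, Pdgfrl, a receptor-like gene (1.28), against 2.29%, and 2 were lower, S1pr3 (-1.35) and the adaptor Nck1 (-1.03), against 5.88%. The median there was -0.23 against -0.17.

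Other contractile genes were taken as a list of 29. It leaves out the contractile genes Myh11 and Cnn1, which are mural gating markers. In mural cells Myh11 stood at 344 CPM in WT and 283 CPM in the knockout, and was at 0 in 31 of 87 and 11 of 20 cells. Cnn1 was at 0 in 80 of 87 and 17 of 20 cells. Of 26 with enough UMIs in mural cells 1 was higher, against 3.06%, and 2 were lower, against 9.77%; the median was 0.03 against -0.30, and 0.18 relative to genes of like length. The higher one was Actg2, the smooth muscle gamma actin, at 148 CPM in WT and 411 CPM in the knockout (1.47, 0.93 to 1.99). The lower ones were the collagen-binding integrin Itga1 (-1.18) and filamin A, Flna (-1.08), neither of which passed relative to genes of like length. In Postn-type fibroblasts 0 of 23 were higher and 1 lower, Mylk, the kinase of myosin light chains (-1.58), and the median was -0.01 against -0.17. In endothelial cells 0 of 23 were higher and 1 was lower, Sparcl1 (-1.01), and the median was -0.25 against -0.34.

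Regulators of contractile genes were represented by 19 genes. In mural cells 1 of 12 with enough UMIs was lower, against 9.77%, and 0 higher: Cyr61, a matricellular target of mechanical signalling, stood at 407 CPM in WT and 85.7 CPM in the knockout (-2.25, -3.32 to -1.34). The median was -0.35 against -0.30. Cyr61 was also the 1 lower of 14 in Postn-type fibroblasts (-1.16), against 5.88%, where 0 were higher and the median was -0.09. In endothelial cells 4 of 14 were lower, against 14%, and 0 higher. They were Tgfb2, a ligand of the TGF-beta family (-1.64), Ctgf (-1.12), the SRF coactivator gene Mkl2 (-1.08) and Klf4 (-1.05), and the median was -0.78 against -0.34. Of the 12 genes in mural cells, 9 have a length. Relative to genes of like length their median was 0.55, with 2 higher and 0 lower. Of the 14 in endothelial cells, 10 have a length. By length their median was -0.23, with 0 higher and 0 lower. In Postn-type fibroblasts the median of 10 was 0.27, with 0 higher and 0 lower. The genes without a length are not in this reading, so it covers only a part of the list. Cyr61 is one of them, so the 0 lower in mural cells and in Postn-type fibroblasts says nothing about Cyr61.

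Other mural genes, 27 that were not used to gate, were the last list. In mural cells 8 of 21 with enough UMIs were lower in the knockout, against 9.77%, and 0 higher, against 3.06%. The median was -0.77 against -0.30. Relative to genes of like length it was -0.29, with 3 lower and 2 higher of the 19 that have a length. Steap4, a metalloreductase, stood at 169 CPM in WT and 17.1 CPM in the knockout, on 2 knockout UMIs (-3.30, -6.36 to -1.41). The integrin Itga7 (-1.95), the chloride channel Ano1 (-1.71) and the endothelin receptor Ednrb (-1.41) had the next largest ratios.

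In Postn-type fibroblasts 5 of 20 other mural genes were lower, against 5.88%, and 0 higher, with a median of -0.39 against -0.17. Among them were Angpt1, a Tie2 ligand, on 2 knockout UMIs (-3.63), Rgs4, on 1 (-3.44), Steap4 (-2.33) and Epas1 (-1.63). In endothelial cells 7 of 12 were lower, against 14%, and 0 higher, and the median was -1.09 against -0.34. They included Steap4, on 3 knockout UMIs (-3.59), Cd248, on 3 (-2.33), Nr2f2 (-1.79) and Epas1 (-1.39). Relative to genes of like length the endothelial median was -0.46, with 4 lower of the 11 that have a length. The fibroblast and mural gating markers, at 262 and 166 CPM in WT endothelial cells and 72.3 and 128 CPM in the knockout, were lower there too. The mural sum was uneven over its markers, with Abcc9 at 0 in 318 and Notch3 in 528 of 533 WT endothelial cells. The part of the gating markers in these counts was not tested.

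For each of the 9 genes, the 3 genes with the most similar levels were taken among 3248 genes, by Pearson's correlation of log2(CPM + 10) over the 12 combinations of 6 cell classes and 2 libraries, which share libraries and are not independent. Rgs5 was followed most closely by 1810011H11Rik (0.99), Dlk1 (0.99) and H2-M9 (0.98). Pdgfrb was followed by Aspn, Arhgef25 and Crispld2 (0.97 each), and Pdgfra by Fst, Ptgis and Saa3 (0.99 each). Actg2 was among the 3 nearest genes of Acta2 (0.98), Tagln (0.94) and Myl9 (0.99), and Foxs1 and Cyp26b1 completed the list for both Acta2 and Myl9. Tagln was followed first by Ctsc (0.95) and then by the endothelin receptor Ednra (0.94). Pdgfb was followed by N4bp3, Snn and Nrros (0.99, 0.98 and 0.98), Mcam by Vasp, Sh2b3 and Gng2 (0.98, 0.97 and 0.97), and Pdgfa by Klk8, Cystm1 and Dtymk (0.94, 0.92 and 0.91).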

How the data were processed

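Tumours of 4 mice per genotype were pooled, digested and sequenced as 1 library each with a Chromium 3' kit, per the labels' protocols. The authors deposited raw UMI counts of genes against cell barcodes; Cell Ranger 2.1.1 and mm10 are named in the submitters' processing notes. Each gene in the tables had 4 or more UMIs in some barcode. The WT table held 10880 barcodes and 115519153 UMIs, the knockout one 10700 and 145331950, and 218 barcodes occurred in both. The tables' own row and column of totals were left out, and rows of a repeated symbol were summed.

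Barcodes with under 200 genes or over 10% mitochondrial UMIs, and doublets (nearest-neighbour score above 0.3; 2.77% and 1.85%), were left out. Gates needed at least 6 of 16 endothelial markers and 3000 CPM of their sum, 5 of 12 mural and 1500 CPM, 7 of 10 fibroblast and 8000 CPM, with 7 of 11 Pi16-type or 6 of 10 Postn-type markers, or Krt8 with Krt18 and 200 CPM. Cells past more than 1 gate (84 and 42) or none (842 and 925), and fibroblasts of neither type (302 and 35), were in no class. Tip cells had 2 of 5 markers (Esm1, Apln, Kcne3, Angpt2, Cxcr4); the 10 planned took in nearly all endothelial cells, so the 5 were kept for their detection, with no gene of interest looked at. The 9 genes and the lists were chosen with earlier results of these data known. Named genes were the 9, up to 4 per list with the largest ratios past the 2-fold rule in mural, Postn-type and endothelial cells (with Cbl besides, which has no fitted ratio), and the 3 nearest in level.

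With 1 library per genotype nothing was tested. Levels carry exact Poisson, shares exact Clopper-Pearson and ratios exact conditional binomial 95% intervals, which cover counting error only. The ratio step was checked on simulated counts. These were Poisson draws, as the intervals assume, so the check does not cover counts that are uneven between cells. Transcript lengths were medians from GENCODE M21. Alternatives changed gates, filters, thinning, scaling and tip markers. R 4.3.3 with edgeR 4.0.16 (TMM factors only) and Python 3.11.15 with pandas 2.3.3, numpy 2.4.6, scikit-learn 1.9.0, scipy 1.17.1 and matplotlib 3.10.9 were used.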

Additional observations from a re-analysis of the deposited data

Results flagged for a closer look

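Mcam was lower in knockout mural cells (log2 ratio -1.15) and higher in knockout Postn-type fibroblasts (2.07), each past the 2-fold rule and in opposite directions. The difference between the 2 classes was not tested, since each genotype had 1 library. The direction in mural cells was the same in all 20 alternatives and that in Postn-type fibroblasts in all 19 that gave a value.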

How the results depend on the processing

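No paired analysis was possible because each genotype had 1 library, and leaving out a library leaves no comparison. Ratios in knockout mural cells rest on 20 cells and those in Pi16-type fibroblasts on 27, so single cells carry weight there, and the intervals cover counting error only. Of the 20 alternatives for the 9 genes, 7 were added after seeing the data, as was the reading of the gene lists by length: the mural gate without Myh11, Cnn1 and Des or without Vtn, endothelial cells without lymphatic markers, the top cell of each gene left out, barcodes of both libraries left out, the median gene as reference, and 2 of 10 tip markers. Of the counts of genes past the 2-fold rule, 103 values were within 1.5 times the reported count and 31 were not. In endothelial cells the count of 1 became 0 with looser gates, thinning, genes of like length, a level of 100 CPM or the mural gate without Myh11, Cnn1 and Des, 4 with stricter gates and 3 at 5% mitochondrial UMIs. In mural cells the count of 3 became 1 with looser gates or genes of like length. By length the 1 was Acta2, which was not among the 3, while Pdgfrb, Mcam and Tagln fell under 2-fold. In Pi16-type fibroblasts 0 became 3 with stricter gates and 1 with the mean of each cell's CPM or without top cells. In Postn-type fibroblasts 3 became 1 at 100 CPM. In keratin positive cells 0 became 2 with looser gates or the mean of each cell's CPM, and 1 at 5% mitochondrial UMIs, with thinning or with the mural gate without Myh11, Cnn1 and Des. For WT tip over other endothelial cells 5 became 3 with looser or stricter gates, 5% mitochondrial UMIs or without top cells, 2 with the mean of each cell's CPM or thinning, and 1 at 100 CPM. For knockout tip cells 3 became 1 with looser gates, the mean of each cell's CPM, 100 CPM or 2 of 10 tip markers, and 0 with stricter gates or thinning. The cause was not tested. Tip ratios of genes with few endothelial UMIs reversed. For Acta2 in WT the log2 ratio was -2.68 with looser gates, -0.21 with stricter gates, -1.44 with the mean of each cell's CPM, -3.78 with tip cells gated after thinning and -3.20 with 2 of 10 markers. For Pdgfrb in WT it was -0.21 with the mean of each cell's CPM, -2.67 gated after thinning and -2.37 with 2 of 10 markers. For Rgs5 in WT it was -1.94 gated after thinning and -1.37 with 2 of 10 markers, and for Tagln in the knockout -0.22 with 2 of 10 markers. The cause was not tested. A gene under 20 UMIs in a setting has no value there. Leaving out the barcodes listed by both libraries, of which mural cells and Postn-type fibroblasts held 0, moved none of these counts by over 1.5 times.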
